A study of Mus musculus with 14 samples.

Results

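Peaks of histone H3 trimethylated at lysine 4 (H3K4me3) were compared between K27M-Tag and WT-Tag neurospheres. The members are the 3 H3K4me3 peak lists of each genotype, chosen by the antibody and genotype in their labels and not by any measured value, and only chromosomes 1 to 19 were used. They make up 6 of the 14 samples of the series and 6 of its 12 peak lists. The 6 FLAG lists of the same cultures entered only as a second readout, and the 2 composite input samples were not analysed here.

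The cells were neural stem cells from the hindbrain of e15.5 mouse embryos, grown as neurospheres, which are floating clusters of dividing precursors. Every culture carried Nestin-cre, a recombinase driven by the Nestin promoter of neural precursors, and 1 knock-in allele of H3f3a, which encodes the histone variant H3.3, beside a normal allele. The K27M-Tag cultures were Nestin-cre; H3f3a LSL-K27M-Tag/+ and the WT-Tag cultures were Nestin-cre; H3f3a LSL-WT-Tag/+, so both groups shared the recombinase and the tag and differed in the K27M substitution. All cultures were female except WT-Tag replicate 3, which was male. The labels give no other allele or treatment, and they do not say whether the cultures of a genotype came from separate embryos. Tests between lists therefore measure only the spread between these cultures. The genotype and the cell type were not checked here, since no annotation of the lists' genome build was used and no gene is named.

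H3K4me3 is a mark of active and poised promoters, placed by the KMT2 and SETD1 methyltransferases, and wide H3K4me3 domains are known at genes that define a cell's identity. H3.3 is the histone H3 variant that enters chromatin outside DNA replication, largely at active promoters and enhancers. The K27M form, found in diffuse midline gliomas of children, inhibits the Polycomb enzyme EZH2 and lowers H3K27me3 over much of the genome. H3K27me3 and H3K4me3 mark opposed states of promoters and occur together at bivalent promoters of developmental genes.

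The autosomal lists held 34309 to 37627 peaks in K27M-Tag against 30884 to 31483 in WT-Tag, which was 96.7% to 97.2% of all peaks of each list. Read totals were not given. The background coverage recovered from the deposited values was 2.77 to 3.50 fragments per base in K27M-Tag against 2.89 to 3.24 in WT-Tag, so the ranges overlapped. Pileups at summits and local backgrounds did differ between lists, and their values stand beside the results they touch. Drosophila chromatin was added to each immunoprecipitation, and no value is scaled by it. A peak stands for a population of cells, so fewer cells with the mark and less of the mark per cell cannot be told apart.

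Peaks were sorted into 4 classes of width, and each list was treated as 1 replicate. The widest class separated the genotypes most. Peaks over 4000 bp numbered 936, 801 and 869 for K27M-Tag replicates 1 to 3 against 514, 667 and 570 for WT-Tag replicates 1 to 3. The lowest K27M-Tag list thus held more of them than the highest WT-Tag list, and the means were 869 ± 67.5 (SD, n = 3) against 584 ± 77.4 (SD, n = 3), with a ratio of 1.49. They covered 4.64 Mb ± 0.403 (SD, n = 3) in K27M-Tag against 3.06 Mb ± 0.398 (SD, n = 3) in WT-Tag.

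Each narrower class also held more peaks in every K27M-Tag list than in any WT-Tag list, with smaller ratios. Peaks of 2000 to 4000 bp numbered 6298, 5825 and 6161 in K27M-Tag against 4721, 5481 and 5118 in WT-Tag, a ratio of 1.19. Peaks of 500 to 2000 bp numbered 16074, 15209 and 16577 against 14428, 14553 and 14548, a ratio of 1.10. Peaks under 500 bp numbered 11730, 12474 and 14020 against 11221, 10782 and 10897, a ratio of 1.16. In this narrowest class K27M-Tag replicate 1 and WT-Tag replicate 1 were nearest each other, and K27M-Tag replicate 3 was the highest.

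As a share of each list, peaks over 4000 bp made up 2.44% ± 0.202 (SD, n = 3) in K27M-Tag against 1.87% ± 0.230 (SD, n = 3) in WT-Tag. Peaks of 500 to 2000 bp had the opposite order, with 44.8% ± 0.981 (SD, n = 3) against 46.6% ± 0.287 (SD, n = 3). Neither pair of ranges overlapped. The shares of the other 2 classes overlapped between genotypes, at 35.7% against 35.2% under 500 bp (two-sided exact permutation p = 0.7) and 17.1% against 16.4% at 2000 to 4000 bp (exact permutation p = 0.5).

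Over the 34 comparisons of list measures made here, 26 had ranges that did not overlap. The measures are not independent: density is the number of peaks over a fixed length, and number and covered length describe the same peaks. Each of these had a two-sided exact permutation p of 0.1, the smallest that 3 lists against 3 can give, and a Benjamini-Hochberg adjusted p of 0.131. No comparison of this kind can pass 0.05, and non-overlap is reported in its place.

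**Figure D1:**
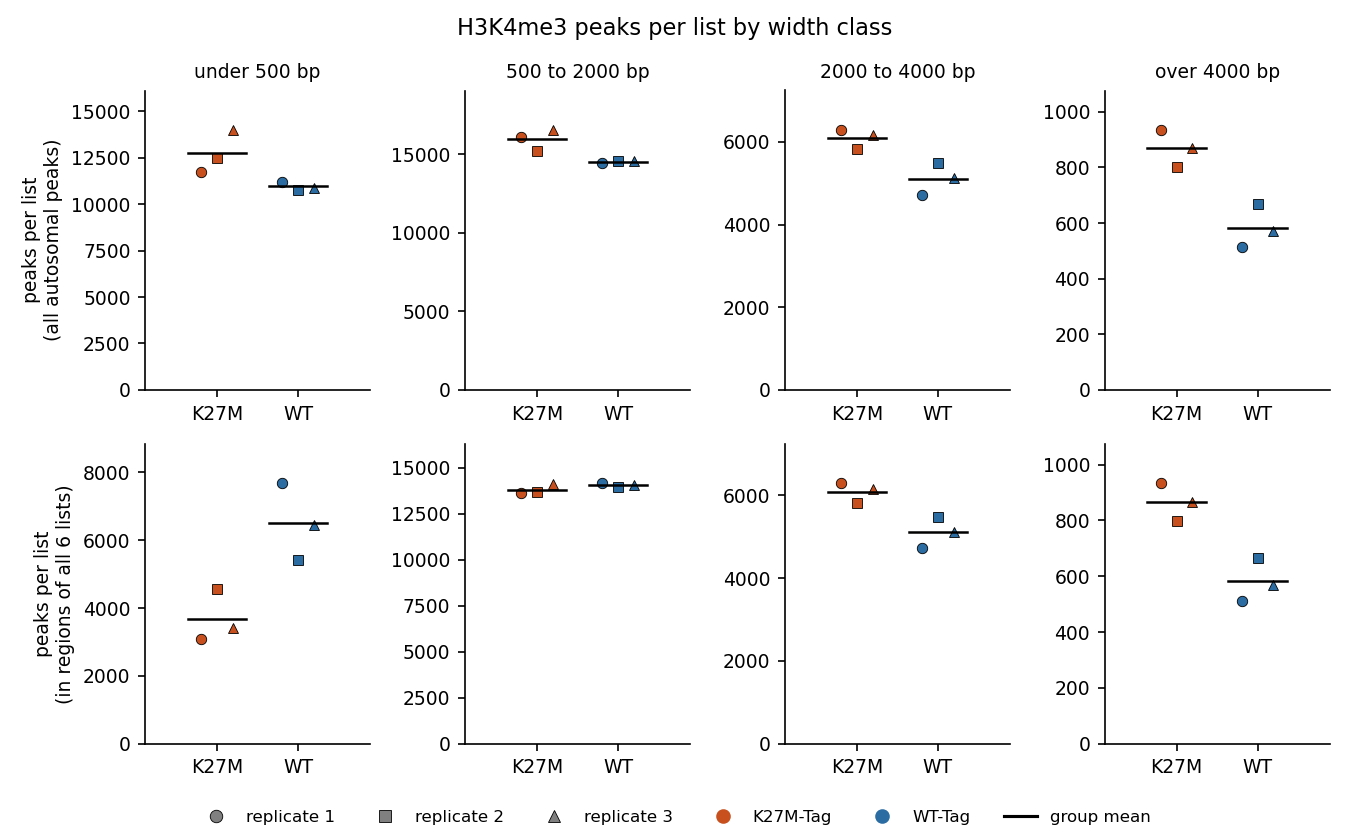
Each panel plots the number of H3K4me3 peaks per list for 1 width class, with a point per list, a line at the group mean and an axis that starts at 0; the upper row counts all autosomal peaks and the lower row only peaks in regions that all 6 lists share. Peaks over 4000 bp are more numerous in all K27M-Tag lists in both rows, while peaks under 500 bp change order, from means of 12741 against 10967 above to 3681 against 6518 below.

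The surplus of narrow peaks in K27M-Tag and the surplus of wide ones lay in different places. Peaks of the 6 lists were merged into 41556 regions wherever they shared at least 1 bp, and 21864 of these regions held a peak in all 6 lists. Of the peaks over 4000 bp, 99.7% ± 0.048 (SD, n = 3) in K27M-Tag against 99.8% ± 0.106 (SD, n = 3) in WT-Tag lay in such shared regions. Of the peaks under 500 bp, only 26.4%, 36.5% and 24.2% did in the K27M-Tag lists, against 68.4%, 50.2% and 59.3% in the WT-Tag lists. The narrow peaks of K27M-Tag were thus mostly outside the shared regions and those of WT-Tag mostly inside, in every list. A shared region needs a peak in all 6 lists, so the shorter WT-Tag lists limit the set. The longer K27M-Tag lists have more peaks that can fall outside it or lack a partner in the other genotype. List length and the rule thus push these shares apart, and their part was not tested.

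Regions without any peak of the other genotype held 38.7% ± 6.02 (SD, n = 3) of the K27M-Tag peaks under 500 bp and 9.33% ± 1.55 (SD, n = 3) of the WT-Tag ones. In the class of 500 to 2000 bp the values were 3.36% ± 1.06 (SD, n = 3) and 0.468% ± 0.241 (SD, n = 3). Few narrow peaks lay beside wide ones: 11.1% ± 0.503 (SD, n = 3) in K27M-Tag against 12.3% ± 0.635 (SD, n = 3) in WT-Tag stood within 1000 bp of a peak of at least 2000 bp.

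With only the peaks in shared regions counted, a setting chosen after seeing the data, the order of the narrow class turned round. Those regions held 3098, 4547 and 3399 peaks under 500 bp in K27M-Tag against 7678, 5414 and 6463 in WT-Tag. The total turned with them, to 24454 ± 463 peaks (SD, n = 3) in K27M-Tag against 26259 ± 784 (SD, n = 3) in WT-Tag. With all peaks counted the means were 35658 and 31167, so this setting dropped more peaks from the longer K27M-Tag lists. Peaks over 4000 bp kept their order, with 866 ± 67.0 (SD, n = 3) against 582 ± 77.5 (SD, n = 3). At equal list sizes, the 30884 highest-scoring peaks of each list, narrow peaks were fewer in K27M-Tag, by 2491. That cut removed low-scoring peaks, mostly from the longer K27M-Tag lists, and narrow peaks have low scores. Their means went from 12741 to 8201 in K27M-Tag and from 10967 to 10692 in WT-Tag. The cut itself pushes the order this way, so it is no separate evidence on narrow peaks.

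The same regions were then followed from one genotype to the other by the median width of their widest peak. Of the 21864 shared regions, 17770 were in the same width class in both genotypes, 3706 (17%) were in a wider class in K27M-Tag and 388 (1.77%) in a narrower one. Most moves crossed the lower limits: 1960 of the regions whose WT-Tag peak was under 500 bp had a K27M-Tag peak of 500 to 2000 bp, and 1411 went from 500 to 2000 bp to the next class. At the upper limit 314 regions went from 2000 to 4000 bp in WT-Tag to over 4000 bp in K27M-Tag, and 50 went the other way. A peak over 4000 bp was called at 1155 regions in at least 1 list and at 360 in all 6. At 94 regions (8.14%) it was called in every K27M-Tag list and in none of WT-Tag, and at 7 (0.606%) the reverse held.

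Wide regions were split into several peaks more often in WT-Tag. The 1310 shared regions over 4000 bp were used, and a region counted as split in a list when the list had 2 or more peaks in it. K27M-Tag replicates 1 to 3 had 32.6%, 42.4% and 41.2% of these regions split, and WT-Tag replicates 1 to 3 had 63.6%, 48.8% and 57.4%. WT-Tag replicate 1 was the most split list and K27M-Tag replicate 1 the least, and the genotypes did not overlap. The means were 38.7% ± 5.34 (SD, n = 3) and 56.6% ± 7.44 (SD, n = 3), a difference of -17.9 percentage points. Without WT-Tag replicate 1 the difference was -14.6.

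Peaks per wide region averaged 1.41, 1.64 and 1.56 in K27M-Tag against 2.03, 1.77 and 1.91 in WT-Tag. Regions in 4 or more peaks made up 1.60% to 5.04% in the K27M-Tag lists and 6.26% to 9.08% in the WT-Tag lists, and the most peaks in 1 region were 7 and 13. Wider regions were more often split in both genotypes. In the 7188 shared regions of 2000 to 4000 bp, 14.2% ± 2.18 (SD, n = 3) were split in K27M-Tag against 24.5% ± 3.92 (SD, n = 3) in WT-Tag, and in the 13366 under 2000 bp 5.36% ± 0.916 (SD, n = 3) and 8.31% ± 1.53 (SD, n = 3). Neither pair of ranges overlapped, and without WT-Tag replicate 1 the last difference shrank from -2.96 to -1.88 percentage points.

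**Figure D2:**
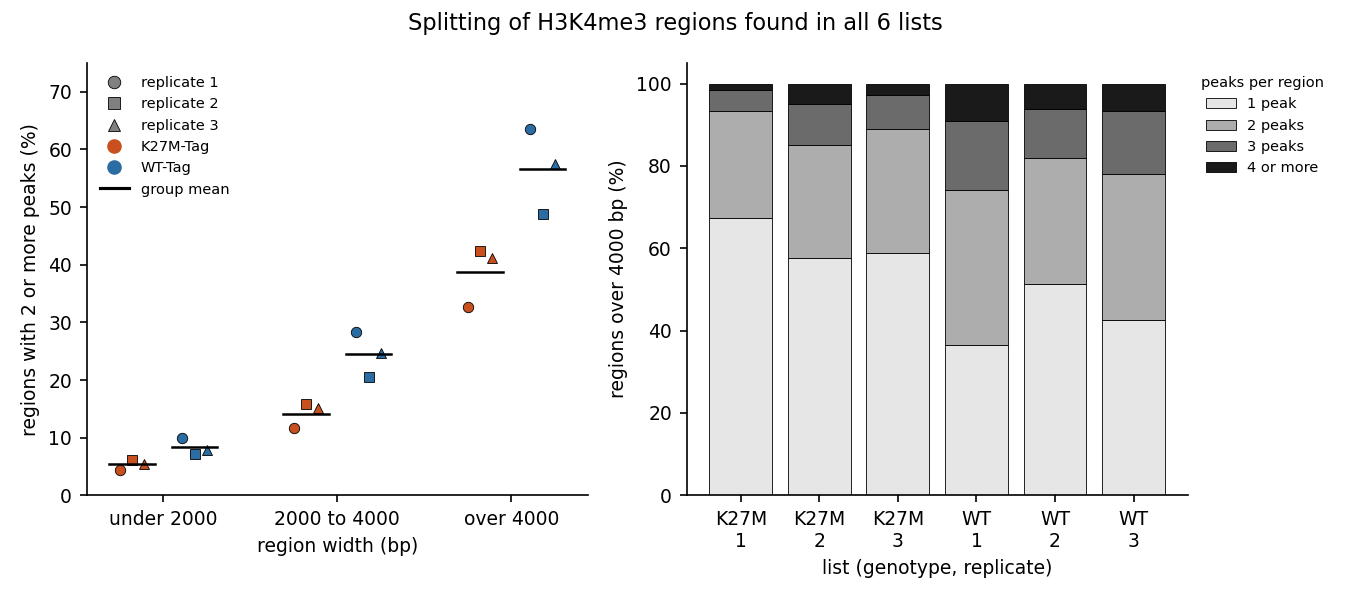
The left panel plots the share of shared regions that hold 2 or more H3K4me3 peaks, in percent, by region width, with a point per list and a line at the group mean; the right panel stacks the share of the 1310 regions over 4000 bp with 1, 2, 3 and 4 or more peaks in each list. All WT-Tag lists sit above all K27M-Tag lists in each width group, with means of 56.6% and 38.7% over 4000 bp.

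The gaps that split wide regions were short. Their median was 122 to 137 bp in the K27M-Tag lists and 125 to 145 bp in the WT-Tag lists, and 66.3% to 75.3% of them were no longer than 200 bp in any list. The smallest gap in a list was 49 to 51 bp. The shorter of the peaks on either side of a gap had a median width of 397 to 465 bp in the 6 lists. What differed was the number of gaps, with 542, 840 and 737 in the K27M-Tag lists and 1351, 1003 and 1190 in the WT-Tag lists. When peaks were joined across gaps of up to 200 bp, 21.8% of wide regions were split in K27M-Tag against 32.4% in WT-Tag. With gaps of up to 1000 bp the shares were 8.25% and 12.2%. The ranges still did not overlap. With the highest-scoring 50% of each list the shares were 11.9% and 21.1%. In each of these settings the wide regions were built anew from the altered lists, so they are not the same 1310. With gaps joined to 1000 bp they numbered 2096.

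A region of the union is wide as soon as 1 list bridges it, so the lists were also compared in pairs without merging. Of the peaks over 4000 bp of a K27M-Tag list, 45.8% on average (35.1% to 55.9%, 9 pairs) met 2 or more peaks in a WT-Tag list, and 23.9% (15.9% to 31.7%, 6 pairs) did so in another K27M-Tag list. Of those of a WT-Tag list, 18.1% (12.8% to 22.6%, 9 pairs) met 2 or more peaks in a K27M-Tag list and 30.3% (18.1% to 42.9%, 6 pairs) in another WT-Tag list. For wide peaks of K27M-Tag the ranges within and between genotypes did not overlap, and for those of WT-Tag they did. The pairs share lists and no test is given.

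Among the 1310 wide regions, 64 (4.89%) had 1 peak in all 3 K27M-Tag lists and 2 or more in all 3 WT-Tag lists, and 10 (0.763%) showed the reverse. A single peak in all 6 lists was found at 171. In the regions of 2000 to 4000 bp the counts were 200 (2.78%) and 14 (0.195%), and under 2000 bp 80 (0.599%) and 16 (0.12%). Over all 21864 shared regions they were 344 (1.57%) and 40 (0.183%). The counts move with single lists: with WT-Tag replicate 2 left out the 64 became 128, with K27M-Tag replicate 2 left out 105, and with K27M-Tag replicate 3 left out 100. The 10 became 18 when WT-Tag replicate 1 was dropped and 17 when K27M-Tag replicate 3 was. Fewer lists then have to meet the rule.

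Local background moved with genotype. It is the expected pileup against which the caller tested a summit, and was recovered from the deposited fold and p. It exceeded 1.5 times the background coverage at 13.7%, 16.2% and 16.0% of K27M-Tag peaks over 4000 bp and at 48.4%, 47.5% and 48.2% of WT-Tag ones. At 2000 to 4000 bp the means were 13.2% and 50.2%, at 500 to 2000 bp 11.1% and 38.8%, and under 500 bp 6.98% and 18.6% to 19.4% in the WT-Tag lists. The widest spread within a genotype was that of K27M-Tag at 2000 to 4000 bp, from 11.3% to 14.4%. The control used in calling is not given in the sources used here, so no test is given. In the labels each genotype has its own composite input. If the lists of a genotype shared it as control, they are not independent, and genotype and control cannot be told apart. This bears on every comparison of the lists here.

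At 408 wide regions the local background at the summit of the highest-scoring peak was at most 1.5 times the background coverage in all 6 lists. There the split was as large, with 33.6%, 41.4% and 43.1% in K27M-Tag against 67.2%, 50.0% and 54.9% in WT-Tag. This choice of regions was made after seeing the data. It does not use the background at the gaps, and the lists can still differ below the limit. The part of local background in the splitting was not tested. One-genotype splits at these 408 regions numbered 17 in WT-Tag alone and 2 in K27M-Tag alone, beside 64 (4.89%) and 10 (0.763%) of all 1310 wide regions.

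Signal height also differed between lists. The median summit pileup of peaks over 4000 bp was 80.8, 90.6 and 68.6 times the background coverage in K27M-Tag against 52.9, 73.8 and 65.6 times in WT-Tag. WT-Tag replicate 1, the most split list, had the lowest value, and WT-Tag replicate 2, the least split of its genotype, exceeded K27M-Tag replicate 3. Within K27M-Tag, replicate 2 had the highest pileup and was the most split. Replicate 1 had a higher pileup than replicate 3 and was less split. In peaks of 500 to 2000 bp the order of the means was opposite, at 25.1 in K27M-Tag against 29.2 in WT-Tag, with ranges that overlapped. The part of signal height in the splitting was not tested.

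Positions are those of the mouse assembly mm9. The longest region that was single in K27M-Tag against split in WT-Tag lay on chromosome 11 from 21893247 to 21909324. Its one K27M-Tag peak was 16027, 15540 and 15964 bp wide, and the WT-Tag lists had 3, 7 and 5 peaks that covered 13248, 8205 and 4848 bp in all. The next lay on chromosome 9 from 69602194 to 69617651, where a peak of 15458, 15299 and 14988 bp in K27M-Tag stood against 8, 7 and 7 peaks in WT-Tag. The widest WT-Tag piece there was 3951 bp. After it came chromosome 14 from 49280618 to 49294654, with a peak of 13540, 14000 and 14037 bp against 4, 3 and 8 peaks. In that region the WT-Tag pieces still covered 12492, 12574 and 11256 bp, so most of the length was called in both genotypes.

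FLAG was called in all 3 regions in every K27M-Tag list and, of the WT-Tag lists, only at chromosome 11 in replicate 1. Over all 1310 wide regions it was called at 90.8% to 96.2% in the K27M-Tag lists and 47.8% to 56.9% in the WT-Tag lists. The local background at the chromosome 9 region was 1.40 to 1.68 times the background coverage in K27M-Tag against 1.09 to 1.76 times in WT-Tag.

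The longest opposite splits were shorter than these 3, although the median region width was 4769 bp over the 10 opposite splits and 4661 bp over the 64. The longest lay on chromosome 10 from 83106087 to 83112270, with 2 peaks in each K27M-Tag list and a single one of 6141, 5470 and 5952 bp in WT-Tag. On chromosome 3 from 109142585 to 109148744 the K27M-Tag lists again had 2 peaks each, and these covered 5774, 5391 and 5532 bp against 4748, 4939 and 4287 bp of the single WT-Tag peak. On chromosome 6 from 42298682 to 42304674 the K27M-Tag lists had 4, 4 and 2 peaks over 4330, 5522 and 5587 bp, and the WT-Tag peak was 2895, 2813 and 3032 bp wide. In the last 2 regions K27M-Tag therefore covered more bases in more pieces.

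The 5 shared regions with the greatest width of the widest peak, averaged over all 6 lists, are described next, a rule that favours regions that are continuous in both genotypes. On chromosome 13 from 83852426 to 83882579 the widest peak was 29221, 29210 and 29007 bp in K27M-Tag against 18189, 29274 and 29588 bp in WT-Tag. There were 1, 2 and 1 peaks in the K27M-Tag lists against 3, 2 and 1 for WT-Tag, and the 3 peaks of WT-Tag replicate 1 together covered 29477 bp. On chromosome 3 from 34546862 to 34566440 it was 19420, 18646 and 19522 bp in K27M-Tag, and 11646, 19413 and 11656 bp in WT-Tag. This region was in 1, 2 and 1 pieces in the K27M-Tag lists and 2, 1 and 5 in the WT-Tag lists. At chromosome 4 from 82139852 to 82161091 there were 2, 1 and 2 peaks in the K27M-Tag lists against 2, 2 and 3 for WT-Tag, with a widest WT-Tag piece of 12369, 12588 and 11566 bp against 20213, 21071 and 19209 bp in K27M-Tag. The covered bases there were 20529 to 21138 in WT-Tag and 20753 to 21085 in K27M-Tag. Chromosome 3 from 88007437 to 88031113 was in 3 to 7 pieces in K27M-Tag against 4 to 8 in WT-Tag. Chromosome 11 from 18907006 to 18921532 was 1 peak in all lists but WT-Tag replicate 1.

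Over all wide regions, peaks covered 93.0% ± 1.61 (SD, n = 3) of the length in K27M-Tag against 86.6% ± 1.31 (SD, n = 3) in WT-Tag, and in regions under 2000 bp 87.8% ± 3.10 (SD, n = 3) and 75.8% ± 3.64 (SD, n = 3). Neither pair of ranges overlapped. Breadth, the bases covered in a region, was tested at each shared region with limma on the log2 scale, with Benjamini-Hochberg adjustment over all 21864. The median log2 change was 0.14 over all regions. By class it was 0.23 under 500 bp, 0.19 at 500 to 2000 bp, 0.09 at 2000 to 4000 bp and 0.08 over 4000 bp. Of all regions 1642 (7.51%) were wider in K27M-Tag and 120 (0.549%) narrower at an adjusted p under 0.05.

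The class over 4000 bp had the highest share of regions that passed and the lowest median change. Over 4000 bp 164 regions were wider (12.5%) and 21 narrower (1.6%), and at 2000 to 4000 bp 581 (8.08%) and 73 (1.02%). At 500 to 2000 bp 891 were wider (7.03%) and 26 narrower (0.205%), and under 500 bp 6 (0.871%) and 0 (0%), where the unadjusted p was under 0.05 at 90 of 689 regions. After the median of each list over all regions was subtracted, the split of directions turned in the 2 wide classes. Their median change lay below that of all regions, so centring made it negative. It was then -0.049 at 2000 to 4000 bp and -0.054 over 4000 bp. The balance of directions among the calls of these classes was thus set by the centring. Over 4000 bp 36 were then wider (2.75%) and 53 narrower (4.05%), and at 2000 to 4000 bp 123 (1.71%) and 157 (2.18%). At 500 to 2000 bp 270 (2.13%) stayed above 36 (0.284%), and over all widths 429 (1.96%) stood against 246 (1.13%).

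The number of calls moved with single lists. The total of 1762 became 74, 589 and 192 when K27M-Tag replicates 1, 2 and 3 were left out in turn. For WT-Tag replicates 1, 2 and 3 it became 1284, 2426 and 818. Over 4000 bp the 185 calls became 16, 68, 28, 126, 214 and 63 in the same order. Each of these fits also had fewer lists, which by itself can lower the number of calls. The median log2 change over all regions stayed between 0.11 and 0.16 in the 6 fits that left out 1 list.

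Among the regions with the largest changes, chromosome 12 from 120085053 to 120089243 was covered over 4135, 4178 and 3493 bp in K27M-Tag against 542, 680 and 893 bp in WT-Tag. The log2 change was 2.51 (SE 0.18, limma adjusted p 0.0026) and 2.37 after centring. No list had a FLAG peak there. On chromosome 5 from 34507442 to 34509229 the values were 1352, 1179 and 1148 bp against 190, 211 and 279 bp, and the log2 change was 2.45 (SE 0.18, limma adjusted p 0.00316). Joining gaps of up to 1000 bp left 0.92 there (adjusted p 0.085), and equal list sizes 1.68 (adjusted p 0.074). The regions on chromosome 2 from 26219993 to 26222084 and chromosome 15 from 78991257 to 78994841 were also named by the rule, with log2 changes of 2.72 and -2.78. At equal list sizes the former was 2.01 (limma adjusted p 0.075). Without WT-Tag replicate 1 the latter was -1.52 (limma adjusted p 0.055). In the chromosome 2 region WT-Tag replicates 1 and 3 had 190 bp, also the shortest width of their lists. The 190 bp of WT-Tag replicate 1 in the chromosome 5 region was at that shortest width too.

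Narrower in K27M-Tag was chromosome 17 from 10490972 to 10492779, with 351, 216 and 189 bp in K27M-Tag against 1476, 926 and 1683 bp in WT-Tag, and the log2 change was -2.44 (SE 0.31, limma adjusted p 0.012). With gaps joined up to 1000 bp it was -0.38 (adjusted p 0.084). Chromosome 2 from 14309924 to 14311067 had 251, 252 and 189 bp against 750, 712 and 1055 bp, and the log2 change was -1.85 (SE 0.22, limma adjusted p 0.011). It lost its call without K27M-Tag replicate 1 (adjusted p 0.058) with a log2 change of -1.92. In both regions the 189 bp of K27M-Tag replicate 3 was the shortest width of its list.

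The summit is the base of highest pileup in a peak, deposited for each peak. In peaks of 2000 to 4000 bp it stood nearer the middle in K27M-Tag. Each peak was divided into 3 equal parts. The share of summits in the central part was 72.2%, 70.4% and 70.2% in K27M-Tag against 64.2%, 67.3% and 65.1% in WT-Tag. All 3 K27M-Tag lists lay above all WT-Tag lists, with means of 71.0% ± 1.09 (SD, n = 3) and 65.5% ± 1.59 (SD, n = 3). The median distance from summit to centre, as a fraction of the width, was 0.106 ± 0.0032 (SD, n = 3) against 0.117 ± 0.0051 (SD, n = 3), also without overlap.

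The other classes gave smaller or overlapping differences. At 500 to 2000 bp the central part held 65.8% ± 1.65 (SD, n = 3) against 62.4% ± 1.99 (SD, n = 3), and the ranges overlapped (two-sided exact permutation p = 0.2). In the shared regions alone they did not, at 68.5% ± 1.67 (SD, n = 3) and 63.1% ± 2.22 (SD, n = 3). Under 500 bp the shares were 70.8% and 69.9% (exact permutation p = 0.4). At equal list sizes they were 79.2% and 70.7%, and the difference grew from 0.939 to 8.54 percentage points without overlap. That cut removed low-scoring narrow peaks mostly from the K27M-Tag lists. The growth therefore cannot be read as a difference in summit position between like peaks. Over 4000 bp they were 48.5% ± 1.16 (SD, n = 3) and 46.4% ± 3.14 (SD, n = 3), with overlapping ranges (exact permutation p = 0.5).

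Peaks over 4000 bp were the least centred in both genotypes. Their median distance from summit to nearest edge was 1619, 1601 and 1557 bp in K27M-Tag against 1573, 1582 and 1479 bp in WT-Tag, and these ranges overlapped. Summits within 10% of the width from an edge made up 3.10% to 3.75% in K27M-Tag against 3.75% to 4.91% in WT-Tag. Left of the centre lay 48.4% to 53.2% of these summits in the 6 lists.

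**Figure D3:**
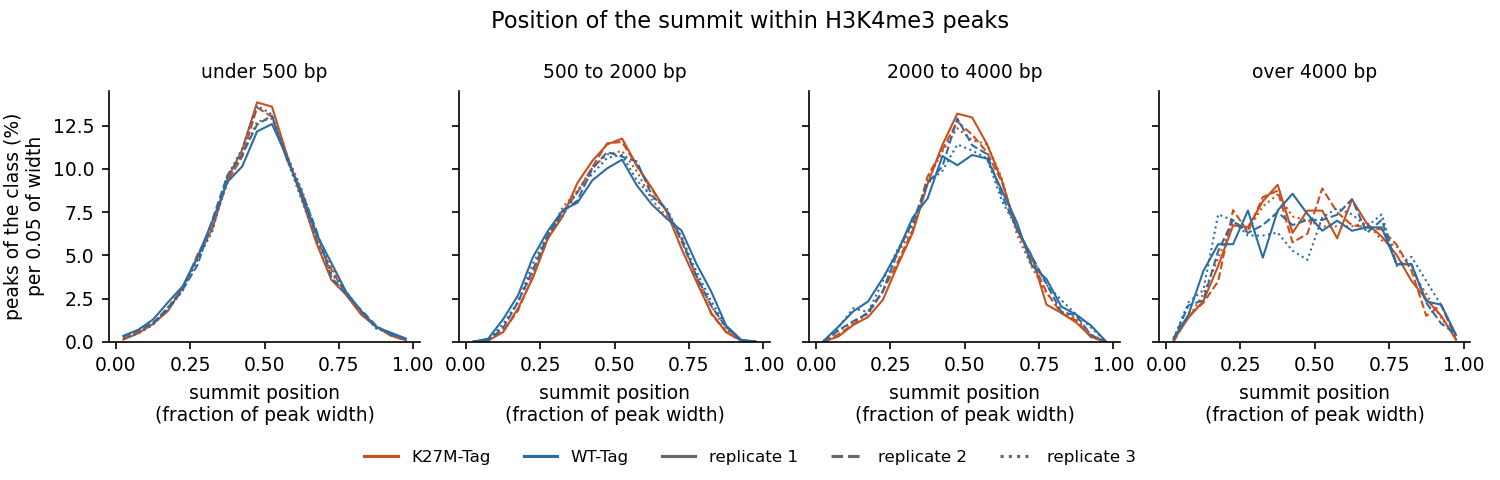
Each panel plots, for 1 width class, the percentage of peaks whose summit falls in each bin of 0.05 of the peak's width, from 0 at the left edge to 1 at the right, with a line per list. The curves have a sharp central maximum up to 4000 bp and a broad plateau that falls off towards both edges over 4000 bp, and at 2000 to 4000 bp the K27M-Tag lines are higher in the middle, where the central of 3 equal parts holds 71.0% against 65.5% of summits.

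Summits lay at nearly the same base in both genotypes. At shared regions the summits of the highest-scoring peaks of 2 lists lay a median of 32.7 bp apart within K27M-Tag, 36.3 bp within WT-Tag and 36.6 bp between genotypes, as means over 3, 3 and 9 pairs of lists. The distance between genotypes was thus nearer to that within WT-Tag than to that within K27M-Tag. In regions over 4000 bp the values were 33.0, 37.0 and 38.8 bp. A distance above 1000 bp occurred at 3.89%, 5.80% and 5.92% of those wide regions. Under 2000 bp the medians were 34.7, 39.0 and 39.0 bp.

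Peak density over the 19 chromosomes was 14.5, 14.2 and 15.6 peaks per Mb in K27M-Tag against 12.8, 13.1 and 12.9 in WT-Tag, over 2410 Mb counted from the first to the last peak of each chromosome. The means were 14.8 ± 0.723 (SD, n = 3) and 12.9 ± 0.125 (SD, n = 3). All 19 chromosomes (100%) had every K27M-Tag list above every WT-Tag list, each with an exact permutation p of 0.1 and an adjusted p of 0.1. The ratio of the means ran from 1.10 on chromosome 17 to 1.2 on chromosome 1. In the shared regions alone, a choice that drops more peaks from the longer K27M-Tag lists, the density turned round, to 10.1 against 10.9 peaks per Mb.

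The same chromosomes were densest and sparsest in both genotypes. Chromosome 11 was the densest, with 22.7 ± 1.26 (SD, n = 3) peaks per Mb in K27M-Tag against 20.4 ± 0.164 (SD, n = 3) in WT-Tag. Chromosome 19 followed with 20.0 and 17.7, and chromosome 17 with 16.7 and 15.1. The lowest were chromosome 14 with 11.4 and 9.88, chromosome 1 with 11.7 and 9.75, and chromosome 16 with 11.8 and 10.1. On chromosome 1 the ranges were 11.3 to 12.4 and 9.59 to 9.92.

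**Figure D4:**
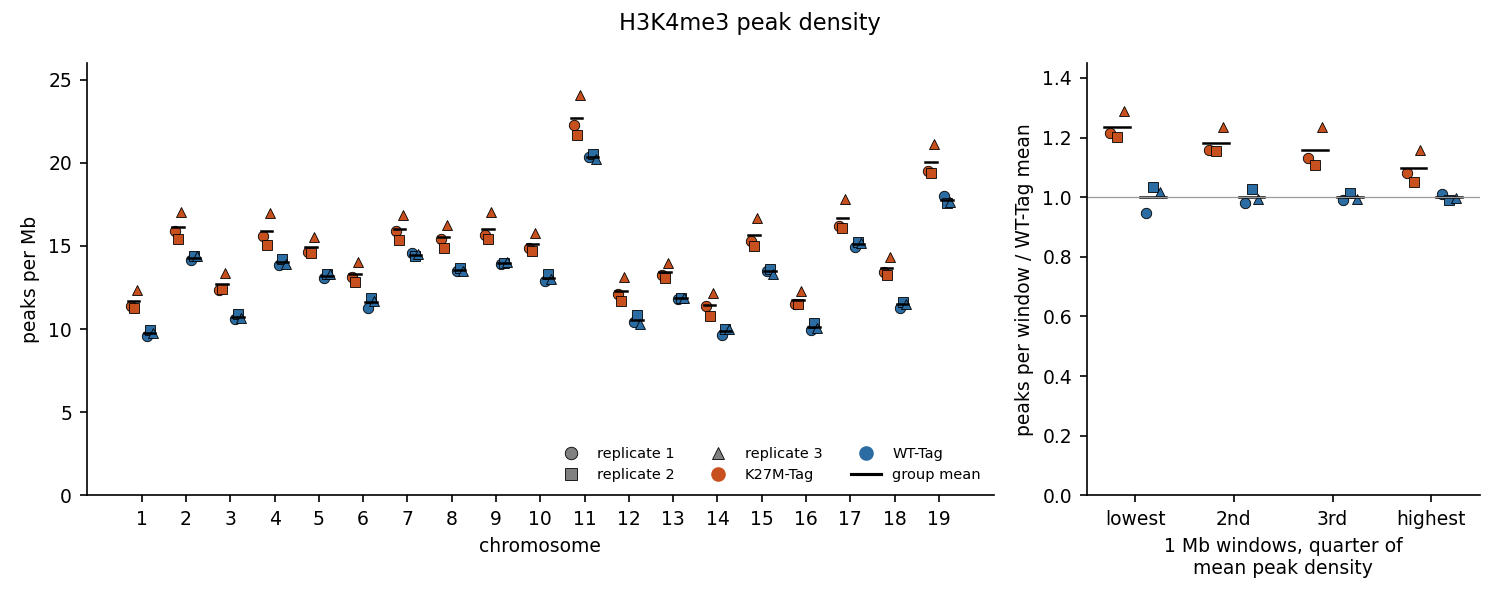
The left panel plots H3K4me3 peaks per Mb on each chromosome, with a point per list and a line at the group mean; the right panel plots the mean number of peaks per 1 Mb window over the WT-Tag mean, for windows parted into 4 groups by their mean density. All chromosomes have the K27M-Tag points above the WT-Tag points, and the ratio of the means falls from 1.24 in the sparsest group of windows to 1.10 in the densest.

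Windows of 1 Mb were parted by density as a description. Of 1709 windows of 1 Mb with a mean of at least 5 peaks, the sparsest of 4 groups of like size held 7.90, 7.82 and 8.37 peaks per window in K27M-Tag against 6.16, 6.72 and 6.61 in WT-Tag, a ratio of 1.24. The ratios of the next groups were 1.18 and 1.16, and that of the densest was 1.10, from 37.8 ± 1.93 (SD, n = 3) and 34.4 ± 0.331 (SD, n = 3). The coefficient of variation over windows was 0.651 ± 0.0044 (SD, n = 3) in K27M-Tag against 0.710 ± 0.020 (SD, n = 3) in WT-Tag. These ranges did not overlap. Windows without any peak numbered 241, 233 and 234 of 2482 in K27M-Tag against 293, 251 and 261 in WT-Tag. The filter and the groups were set by the mean of all 6 lists, so windows near the limit of 5 peaks could enter through the higher K27M-Tag counts, which can raise the ratio of the sparsest group and bears on the coefficient of variation too.

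In limma on log2(peaks + 0.5) with Benjamini-Hochberg adjustment, 239 windows (14%) were denser in K27M-Tag and 1 (0.0585%) less dense, with a median log2 change of 0.19. None passed when K27M-Tag replicate 1, K27M-Tag replicate 3 or WT-Tag replicate 3 was left out, or at equal list sizes. The counts at an unadjusted p under 0.05 were then 479, 418, 484 and 282, against 583 with all lists. Leaving out WT-Tag replicates 1 and 2 in turn gave 36 and 89 windows, and leaving out K27M-Tag replicate 2 gave 73. After each list was centred on its median window, 41 windows (2.4%) were denser and 62 (3.63%) less dense, so the balance of directions among the calls was set by the centring. The 103 centred calls became 0, 58 and 46 when K27M-Tag replicates 1, 2 and 3 were left out in turn, and 73, 110 and 12 for the WT-Tag replicates. In each of the 5 fits with calls more windows were denser than less dense in K27M-Tag, the reverse of the fit with all lists. In that order the counts were 34 against 24, 38 against 8, 43 against 30, 58 against 52 and 9 against 3. At an unadjusted p under 0.05 there were 352 windows without K27M-Tag replicate 1 and 419 with all lists.

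The largest centred gain was on chromosome 1 from 77000001 to 78000000, with 11 peaks in each K27M-Tag list and 4, 3 and 3 in the WT-Tag lists. The log2 change was 1.60, and 1.35 after centring (SE 0.17, limma adjusted p 0.00191). Chromosome 2 from 68000001 to 69000000 had 9, 8 and 9 peaks against 3 in each WT-Tag list, and chromosome 7 from 76000001 to 77000000 had 11, 12 and 10 against 5, 4 and 3. In the chromosome 7 window the covered bases also differed, at 7062, 7024 and 6094 against 2945, 1321 and 1473. All 3 windows had a WT-Tag mean under the limit of 5 peaks and passed the filter only through K27M-Tag, so they had to differ. Without K27M-Tag replicate 1 these 3 windows kept centred log2 changes of 1.33, 1.09 and 1.10 with adjusted p of 0.068, 0.068 and 0.10.

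The largest centred loss was on chromosome 6 from 52000001 to 53000000, where one WT-Tag list differed from the other two. The window held 16, 19 and 18 peaks in K27M-Tag against 18, 36 and 31 in WT-Tag, with 13189, 13591 and 13466 bp covered against 12802, 30846 and 38025 bp. WT-Tag replicate 1 thus lay among the K27M-Tag lists in both measures. The centred log2 change was -0.85 (SE 0.18, limma adjusted p 0.021), and uncentred it was -0.61 (adjusted p 0.086). Chromosome 9 from 4000001 to 5000000 had 4, 4 and 5 peaks against 6, 7 and 7, and chromosome 1 from 171000001 to 172000000 had 7, 9 and 9 against 14, 12 and 9. The chromosome 9 window had a K27M-Tag mean of 4.33, under the limit of 5 peaks. It passed the filter only through WT-Tag, so it had to differ. On chromosome 1 the ranges met at 9 and the uncentred adjusted p was 0.11. None of these 3 losses passed without K27M-Tag replicate 1, at adjusted p of 0.15, 0.10 and 0.15 and centred log2 changes of -0.81, -0.79 and -0.60, against -0.85, -0.81 and -0.69 with all lists.

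FLAG, the tag on H3.3, was immunoprecipitated separately from the same cultures. The share of H3K4me3 peaks over 4000 bp that overlapped a FLAG peak of the same culture by 1 bp was 95.3%, 91.3% and 97.2% in K27M-Tag against 49.0%, 57.1% and 57.4% in WT-Tag. At 2000 to 4000 bp the means were 74.7% ± 7.63 (SD, n = 3) and 25.1% ± 3.86 (SD, n = 3). At 500 to 2000 bp they were 51.0% ± 7.03 (SD, n = 3) and 18.9% ± 3.62 (SD, n = 3), and under 500 bp 47.6% ± 6.24 (SD, n = 3) and 24.4% ± 3.09 (SD, n = 3). No ranges overlapped in any class. The FLAG lists differed in length too, at 57061 to 87258 peaks in K27M-Tag against 32466 to 46880 in WT-Tag. With the FLAG lists and the H3K4me3 lists both shortened to equal sizes at once, the differences shrank by over 1.5 times up to 4000 bp, to 10.3, 18.1 and 30.3 percentage points from the narrowest class on, without overlap.

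A wide peak meets another peak more easily than a narrow one, so FLAG was also counted at the summit base alone, a setting chosen after seeing the data. FLAG then covered the summit of 50.7%, 36.0% and 56.5% of peaks over 4000 bp in K27M-Tag against of 8.56%, 8.40% and 8.42% in WT-Tag. By this measure the class over 4000 bp was no longer the highest in WT-Tag, where the shares went from 20.1% ± 3.11 (SD, n = 3) under 500 bp to 9.75% ± 2.14 (SD, n = 3), 5.03% ± 1.07 (SD, n = 3) and 8.46% ± 0.089 (SD, n = 3) in the wider classes in turn. In K27M-Tag they were 43.1% ± 6.08 (SD, n = 3), 33.3% ± 6.75 (SD, n = 3), 32.9% ± 9.01 (SD, n = 3) and 47.7% ± 10.6 (SD, n = 3), and these ranges overlapped between classes. The FLAG lists covered 44.0, 31.5 and 49.5 Mb in K27M-Tag against 11.0, 19.3 and 18.7 Mb in WT-Tag. The summit count was not repeated at equal list sizes.

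Regions split only in WT-Tag and wide regions in general had like shares with FLAG. It was called at 96.9% ± 1.56 (SD, n = 3) of the 64 wide regions split only in WT-Tag in the K27M-Tag lists, against 93.9% ± 2.81 (SD, n = 3) of all 1310. In the WT-Tag lists the shares were 55.7% ± 0.902 (SD, n = 3) and 53.7% ± 5.16 (SD, n = 3).

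**Figure D5:**
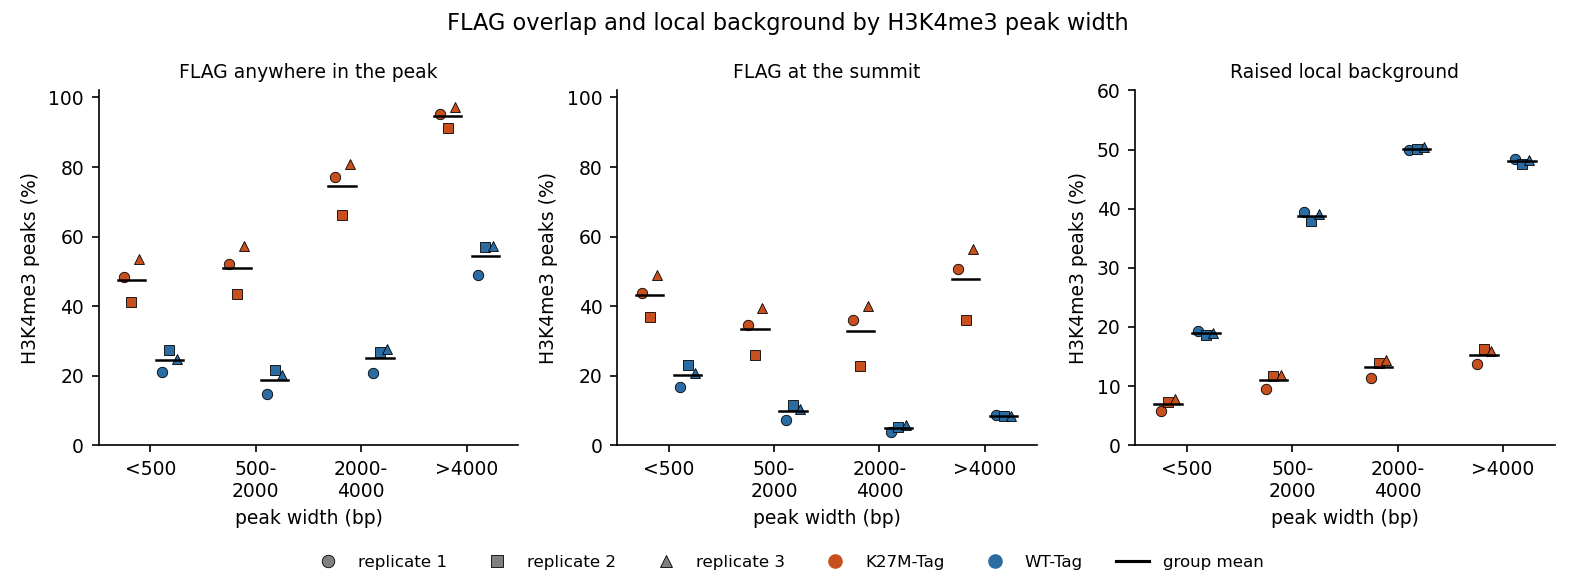
By H3K4me3 peak width, the panels plot the percentage of peaks with a FLAG peak of the same culture anywhere on them, the percentage with FLAG at the summit base, and the percentage whose local background exceeds 1.5 times the background coverage, with a point per list and a line at the group mean. Over 4000 bp the means are 94.6% and 54.5% for any overlap, 47.7% and 8.46% at the summit, and 15.3% and 48.1% for local background in K27M-Tag and WT-Tag.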

How the data were processed

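The deposited peak lists hold 10 columns in narrowPeak order, with 1 list per library. BWA 0.7.17-r1188, MACS2 2.2.7.1 and bedtools 2.29.2 and the builds mm9 and dm6 are named in the submitters' processing notes, without their roles. The control and threshold are not given in the sources used here. The deposited score is 10 times the deposited −log10 q within 1 unit, the deposited fold is a ratio of pileup to local background, and the deposited −log10 p belongs to the summit. The lowest −log10 q was 2.00 to 2.05, so number and width of peaks move with depth and control.

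Whole pileups and local backgrounds were recovered from the deposited fold and p for 100% of peaks (relative tolerance 0.0001), on an inferred Poisson form. The most common background of a list is its background coverage. Scores only ranked or filtered peaks within a list. Regions were merged at 1 bp. Permutation tests were exact and two-sided. limma 3.58.1 in R 4.3.3 was fitted with trend, with a threshold of 0.05, and Python 3.11.15, scipy 1.17.1 and matplotlib 3.10.9 were used for the rest. The code was tested on simulated data.

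Regions and windows were named by a rule: up to 3 per direction of the longest one-genotype splits, the largest changes in breadth and the largest centred changes in density, the 5 shared regions with the greatest mean width of the widest peak, and the 3 densest and 3 sparsest chromosomes. Members, classes and lists were chosen with earlier results of these data known. Alternatives were the top 50% by score, equal list sizes, a common p limit (−log10 p of 3.89), joined gaps, other region limits, FLAG overlap of 50%, pseudocount 2, no filter, windows of 5 Mb, centring, a replicate block and leaving out each list. A further 3 were added after seeing the data: shared regions only, low local background and FLAG at the summit. Gene names were left out, since the gene table at hand is of another build.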

Additional observations from a re-analysis of the deposited data

How the results depend on the processing

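Of 548 values of 43 results under alternatives, 467 kept direction and, for counts of calls, stayed within 1.5 times. Of the 34 list measures 26 never changed direction. The 34 values of the sign-flip test repeat the main differences, so they could not change and count among the 467. At equal list sizes, peaks under 500 bp differed by -2491 in number, -8.07 percentage points in share and -0.554 Mb in length, and the share of 500 to 2000 bp by 3.94. Both this setting and the next removed more peaks from the longer K27M-Tag lists. In shared regions only (added after seeing the data) the differences were -1805 peaks in all, -0.749 per Mb, -2837 and -234 peaks in the 2 narrow classes and -9.73 and 2.98 in their shares. Joining gaps gave -1.06 (200 bp) and -1.98 (1000 bp) for the share of 2000 to 4000 bp and 0.303 (1000 bp) for 500 to 2000 bp. Without K27M-Tag replicate 3 the share under 500 bp differed by -0.276, and by up to 1.62 without other lists. The causes were not tested.

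Wide regions split in WT-Tag only or K27M-Tag only numbered 33 and 4 with the top 50%, 11 and 2 over 6000 bp and 17 and 2 at low local background, 23 (WT-Tag only) with gaps joined to 1000 bp and 5 (K27M-Tag only) at equal sizes. Leaving out 1 list gave 82 to 128 and 10 to 18. Where a setting changed the lists, the wide regions were built anew, so these counts are of other sets of regions. Windows with changed density numbered 156 without filter, 641 with joined gaps, 0 at equal sizes and 0 to 89 without 1 list; centred windows 11 without filter, 45 of 5 Mb, 0 at equal sizes and 0 to 110. Changed breadth, for all widths and from the narrowest class up, was 675, 0, 306, 280 and 89 after centring, and 980, 1, 450 and 342 up to 4000 bp with joined gaps; under 500 bp it was 3 at equal sizes. Without 1 list it ran from 74 to 2426, 0 to 10, 21 to 1334, 37 to 868 and 16 to 214.

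The replicate numbers, which match the experiment numbers in the labels, did not pair the lists: deviations of same-numbered lists correlated at -0.047 to 0.034. With a replicate block no window passed before or after centring (0 and 0; 527 and 380 at an unadjusted p under 0.05), and changed breadth numbered 468 in all and 0, 169, 233 and 66 by class. In the sign-flip test of the 3 pairs the smallest exact p is 0.25.

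Of 118 values of the 12 named windows and breadth regions, 88 kept their call, 30 lost it and none turned direction. A replicate block leaves the log2 change as it was, so its values could not turn. No list gives reads, so depth limits are known only through the recovered coverage.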
